A study of Mus musculus with 12 samples.

Results

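The genes that encode the proteins of the cytosolic ribosome were followed through 12 RNA-seq libraries of mouse macrophages. Members were taken by name from the genes listed for the wild-type cells: every name that starts with Rpl or Rps and a digit, Rplp0, Rplp1, Rplp2 and Rpsa, without the Rps6k kinases and without names that end in -ps or in -ps and a number, the mark of a pseudogene. This gave 89 of 15788 listed genes. Genes of ribosomal proteins with other names, such as Fau, are not among them. Of these, 77 encode standard proteins of the ribosome: 43 of the large subunit, 31 of the small subunit and the 3 proteins of the P stalk. A further 9 names are copies of such genes (Rpl22l1, Rpl32l, Rpl36al, Rpl37rt, Rpl39l, Rpl3l, Rps27l, Rps27rt and Rps4l). Among these copies, Rpl32l, Rpl37rt and Rps4l are annotated as processed pseudogenes, though their names lack the mark. The last 3 fit the pattern of the names but encode no ribosomal protein: Rpl7l1, Rps19bp1 and Rps23rg1.

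Bone marrow-derived macrophages, which are grown out from marrow in culture, were obtained from mice labelled MGMT KO and from mice labelled wild-type (WTfl/fl). MGMT is the enzyme that removes alkyl groups from guanine in DNA. The cells were kept for 24 hours with DMXAA, an agonist of mouse STING, the adaptor of the cytosolic DNA sensing pathway, or with its vehicle DMSO. The 4 groups were MGMT KO with DMXAA, MGMT KO with DMSO, wild type with DMXAA and wild type with DMSO, of 3 libraries each. The design text gives the DMXAA concentration as 10 mg/ml, a unit that nothing in the files checks, so the dose is uncertain. The labels do not say how the knockout was made, which cells the deletion covers, or whether the 3 libraries of a group came from separate mice, so p-values measure only the spread between these libraries, which may be technical.

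A ribosome is built from ribosomal RNA and one copy of most ribosomal proteins, and the genes of these proteins lie scattered over the chromosomes yet are strongly expressed in nearly every cell. Their mRNAs belong to the TOP class: transcription starts at a C inside a run of pyrimidines, and this terminal oligopyrimidine start lets mTOR, through the RNA-binding protein Larp1, hold the mRNAs in store or release them to translation. In macrophages, translation and ribosome production are known to be remodelled during innate activation.

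The 12 libraries held 79482003 to 98135869 reads in listed genes. Mgmt had 51, 61 and 33 reads in KO cells and 107, 85 and 99 reads in WT cells under DMXAA, and 121, 141 and 162 reads in KO cells and 263, 245 and 243 reads in WT cells under DMSO. Mgmt was thus lower in every KO library than in every WT library of the same treatment, but not absent. The 10 interferon-stimulated genes used as a check of the treatment were all called higher under DMXAA in both genotypes. All 8 macrophage markers had reads in every group, and their summed level was 9370 to 9460 RPM (reads-per-million, the reads of a gene scaled to its library's total) in KO with DMXAA, 16600 to 17400 RPM in KO with DMSO, 11500 to 11700 RPM in WT with DMXAA and 20400 to 20900 RPM in WT with DMSO. Markers of neutrophils, with 7 of 8 genes listed, summed to at most 1.28 RPM in KO libraries and to between 2.72 and 7.75 RPM in WT libraries, and Elane was at 0 in all groups. The marker lists of 6 other cell types, B cells, T and NK cells, stromal, dendritic, erythroid, and mast cells or basophils, summed to at most 5.41 RPM in any library; the 5 dendritic cell markers had 4.1 to 5.41 RPM in KO and 4.2 to 4.69 RPM in WT cells under DMXAA, against at most 0.528 RPM under DMSO. Nearly all of that sum was Xcr1, with 3.8 to 4.84 RPM in the DMXAA libraries. Ccr7 had at most 0.531 RPM there, Flt3 and Zbtb46 were at or near 0 and Siglech was at 0. Under DMSO the 6 stromal markers summed to 0.947 to 5.41 RPM in KO and 0.381 to 0.83 RPM in WT cells. In KO DMSO replicates 2 and 3, Col1a1 had 2.15 and 2.5 RPM and Col1a2 had 2.39 and 1.9 RPM. In KO DMSO replicate 1 these 2 genes had 0.113 and 0.225 RPM.

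The summed macrophage markers were lower under DMXAA, in the same libraries as the shifts described below, and lower in KO than in WT cells, but the list did not move as one. Lyz2 made up much of the sum, and without it, a gene chosen after its values were seen, the other 7 summed to 7220 to 7350 RPM in KO with DMXAA, 9830 to 9960 RPM in KO with DMSO, 7540 to 7600 RPM in WT with DMXAA and 9650 to 9950 RPM in WT with DMSO. Under DMSO the genotypes then overlapped. Fcgr1 was higher under DMXAA, with 1150 to 1230 RPM in KO and 1120 to 1170 RPM in WT cells under DMXAA, against 106 to 113 RPM in KO and 132 to 159 RPM in WT cells under DMSO. Cd68 overlapped between the treatments in WT cells. The part of any marker list in the shifts was not tested.

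One library stood apart in the genes described here: WT with DMSO replicate 1 had the highest ribosomal protein share of its group, and results that rest on it are given with and without it. In bulk RNA, fewer cells of a kind and less of a transcript per cell cannot be told apart.

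Ribosomal protein genes took up a smaller share of all reads under DMXAA than under DMSO, in both genotypes. In KO cells the 89 members held 2.010%, 2.043% and 1.947% of the reads under DMXAA, against 3.611%, 3.620% and 3.672% under DMSO. In WT cells they held 2.021%, 1.946% and 1.954% under DMXAA, against 3.302%, 2.909% and 2.918% under DMSO. Every DMXAA library lay below every DMSO library. The 95% Wilson interval of a library's share, which covers counting error only, reached at most 0.00412 percentage points to either side. The mean share under DMXAA was 0.55 of that under DMSO in KO cells and 0.649 of it in WT cells; without WT DMSO replicate 1 the second ratio was 0.678. Under DMXAA the genotypes had nearly the same mean share, 2.0% ± 0.0489 in KO and 1.974% ± 0.0413 in WT (SD, n = 3 each), and their libraries overlapped. Under DMSO the KO mean was higher, 3.634% ± 0.0327 against 3.043% ± 0.2242 in WT (SD, n = 3 each), with no overlap and a ratio of 1.194, or 1.247 without WT DMSO replicate 1. No test is given for these shares, since 3 libraries against 3 cannot go below an exact two-sided permutation p of 0.1.

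**Figure D1:**
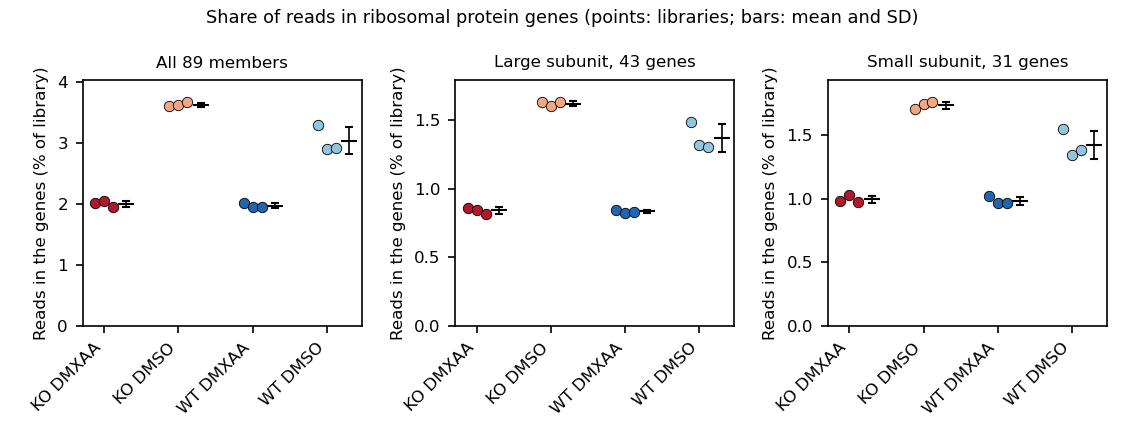
Share of each library's reads, in percent, that fell in all 89 members (left), the 43 large subunit genes (middle) and the 31 small subunit genes (right), for KO with DMXAA, KO with DMSO, WT with DMXAA and WT with DMSO. Points are libraries, bars mean and SD (n = 3); the DMXAA groups lie together near 2% in the left panel, while KO with DMSO lies above WT with DMSO.

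The summed share fell further for the large subunit than for the small subunit, a gap that rested on 1 small subunit gene, Rps24. The DMXAA to DMSO ratio of the mean share was 0.519 for the large and 0.573 for the small subunit in KO cells, and 0.607 for the large and 0.69 for the small subunit in WT cells. The reads of the large subunit divided by those of the small subunit were 0.875, 0.824 and 0.838 under DMXAA and 0.957, 0.919 and 0.927 under DMSO in KO cells. In WT cells this quotient was 0.830, 0.849 and 0.862 under DMXAA and 0.960, 0.982 and 0.947 under DMSO. The DMXAA libraries lay below the DMSO libraries in each genotype. Without Rps24 among the small subunit genes, a gene chosen here after its values were seen, the quotient was 1.077, 1.029 and 1.040 under DMXAA and 1.082, 1.035 and 1.046 under DMSO in KO cells, and 1.062, 1.063 and 1.093 under DMXAA and 1.082, 1.093 and 1.066 under DMSO in WT cells. The treatments then overlapped in both genotypes.

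The response of single genes was tested on the authors' normalized counts, which were scaled within each table of 6 libraries. A gene was tested where its mean was at least 10 normalized counts, and a gene was called at an adjusted p under 0.05 by limma on log2(normalized count + 1), with Benjamini-Hochberg adjustment over all tested genes. Changes below are log2 differences on that scale, DMXAA over DMSO or KO over WT, and the median over all tested genes was 0.01 or closer to 0 on it.

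In KO cells, DMXAA lowered most ribosomal protein mRNAs by a modest amount and raised a few. Of 87 tested members, 77 fell and 5 rose under DMXAA, where 32.9% of all 12704 tested genes fell and 33.7% rose, and the median log2 difference of the members was -0.57. All of the 77 standard genes passed the filter on low values: 72 fell and 3 rose, with a median of -0.58. By subunit, 42 of 43 large subunit genes fell and none rose, 27 of 31 small subunit genes fell and 3 rose, and all 3 P stalk genes fell. The groups did not overlap for 77 lower and 5 higher members, where 35.2% of all tested genes were lower and 35.8% higher with no overlap. Of these calls, 76 of the 77 lower and all 5 higher ones held whichever library was left out.

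The deepest falls were in Rpl3 and Rpl10a. Rpl3, a large subunit protein that reaches to the site where peptide bonds form (mm10 chromosome 15, bases 80077791 to 80091868, minus strand), had 11250, 11550 and 10910 normalized counts in KO cells under DMXAA, against 26840, 25920 and 24890 under DMSO, a log2 difference of -1.20 (SE 0.0442, adjusted p = 3.31e-09). Rpl10a, the protein of the stalk beside the exit site for spent tRNA (chromosome 17, bases 28328471 to 28331033, plus strand), had 11320, 11460 and 10990 normalized counts under DMXAA, against 24220, 23710 and 24780 under DMSO, a log2 difference of -1.11 (SE 0.0401, adjusted p = 2.98e-09). Rpl36a, of the large subunit, had 5272, 3089 and 5259 normalized counts under DMXAA, against 8230, 8870 and 9251 under DMSO, and DMXAA replicate 2 was far below the others. Its log2 difference was -0.99 (SE 0.171, adjusted p = 0.000464), with the widest error of the standard genes named here.

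Rps24 and Rps20, both of the small subunit, were among the 3 standard genes that rose. Rps24, whose human gene is mutated in Diamond-Blackfan anaemia (chromosome 14, bases 24487125 to 24496959, plus strand), had 191000, 213800 and 197600 normalized counts under DMXAA, against 157200, 154000 and 161500 under DMSO, a log2 difference of 0.35 (SE 0.0466, adjusted p = 7.62e-05). Rps20, a protein of the head of the small subunit (chromosome 4, bases 3831334 to 3835665, minus strand), had 19750, 20170 and 19050 normalized counts under DMXAA, against 15960, 14830 and 17510 under DMSO, a log2 difference of 0.29. The groups did not overlap in either gene, but in KO cells these calls depend on the scaling, as given below. Rplp0, the anchor of the stalk that recruits translation factors, and Rplp1 and Rplp2, the acidic proteins that it carries, had log2 differences of -0.52, -0.46 and -0.31. Rpsa, a small subunit protein also known as the laminin receptor, had 24330, 25770 and 23960 normalized counts under DMXAA, against 39750, 39960 and 39080 under DMSO, a log2 difference of -0.68. All 4 were called lower in KO cells. Rpl41, the smallest ribosomal protein, and Rps27a, made as a fusion with ubiquitin, were the standard genes not called, with log2 differences of -0.12 (adjusted p = 0.121) and -0.09 (adjusted p = 0.374).

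In WT cells, most ribosomal protein mRNAs were lowered by DMXAA too. Of the 89 members, 88 were tested, of which 70 fell and 5 rose, where 31.1% of all 12752 tested genes fell and 31.7% rose. One of the 5, the copy Rpl3l, passed the filter on low values only through the DMXAA libraries; leaving it out, a choice made after seeing the data, gives 4 that rose of 87 tested. The median log2 difference of the tested members was -0.40 with and without it. Of the 77 standard genes, 66 fell, 3 rose and 8 were not called, with a median of -0.41. By subunit, 38 of 43 large subunit genes fell and none rose, 25 of 31 small subunit genes fell and 3 rose, and all 3 P stalk genes fell. The groups did not overlap for 71 lower and 5 higher members, or 4 higher without Rpl3l, where 34.0% of all tested genes were lower and 34.7% higher with no overlap. On the reads recovered from the files, edgeR called 72 members lower in WT cells, against 31.9% of all tested genes. Without WT DMSO replicate 1, limma called 65 members lower and 8 higher, with a median of -0.34. Of the calls with all libraries, 61 of the 70 lower and 4 of the 5 higher ones held whichever library was left out; Rpl3l could no longer be tested without WT DMXAA replicate 3.

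In WT cells too, Rpl3 and Rpl10a were lowest. Rpl3 had 9833, 9980 and 9590 normalized counts under DMXAA, against 26310, 23590 and 23110 under DMSO. Its log2 difference was -1.31 (SE 0.0554, adjusted p = 1.9e-08), and the groups lay far apart. Rpl10a had 9507, 9459 and 10100 normalized counts under DMXAA, against 25590, 21970 and 21390 under DMSO. Its log2 difference was -1.24 (SE 0.0681, adjusted p = 1.44e-07). These genes stood apart from the next ones.

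Rps21 and Rpl14 also fell in WT cells. Rps21, a small subunit protein, had 54580, 53190 and 66590 normalized counts under DMXAA, against 111900, 96250 and 93040 under DMSO, a log2 difference of -0.79 (SE 0.0919, adjusted p = 3.75e-05). Rpl14, of the large subunit, had 7645, 6525 and 6949 normalized counts under DMXAA, against 13500, 10630 and 10690 under DMSO, a log2 difference of -0.72. In both genes the DMXAA libraries all lay below the DMSO libraries.

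Rps24 and Rps20 ran against the rest in WT cells as well. Rps24 had 215500, 192200 and 200900 normalized counts under DMXAA, against 138300, 106200 and 121300 under DMSO. Its log2 difference was 0.74 (SE 0.0852, adjusted p = 3.51e-05). Rps20 had 18240, 19970 and 18980 normalized counts under DMXAA, against 14570, 14170 and 13650 under DMSO, a log2 difference of 0.43 (SE 0.0493, adjusted p = 3.37e-05). In both genes every DMXAA library lay above every DMSO library, but the size and, for Rps20, the call depend on the scaling, as given below.

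The stalk proteins and Rpsa followed the majority in WT cells. Rplp0 had 30570, 31920 and 32030 normalized counts under DMXAA, against 49260, 41300 and 40350 under DMSO, a log2 difference of -0.46. Rplp1 and Rplp2 had log2 differences of -0.43 and -0.31. Rpsa had 22350, 22350 and 20600 normalized counts under DMXAA, against 37120, 34430 and 32550 under DMSO, a log2 difference of -0.67. The 8 standard genes that were not called in WT cells were Rpl19, Rpl24, Rpl27, Rpl29, Rpl9, Rps13, Rps27a and Rps9, with log2 differences between -0.27 and 0.09. In Rpl29 and Rps13 the spread of the DMSO libraries was wide: Rpl29 had 9923, 9627 and 10440 normalized counts under DMXAA, against 15210, 9132 and 11710 under DMSO.

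To show what lies at the transcription start of genes with opposite responses, the promoters of the members with the 3 lowest and the 3 highest differences in WT cells that have an entry in the RefSeq table (assembly GRCm38.p6) were read, and those of the standard genes Rpl10a, Rps21, Rpl14 and Rps24 are printed, from 100 bases before to 20 bases from a listed start. Capitals mark the letters CCGGAA, a core that ETS-family factors are known to bind, or an unbroken run of at least 10 pyrimidines. Rpl10a, Rps21 and Rps24 each have more than one listed start, and the window of the later start is shown.
Rpl10a, chr17:28328465-28328584, plus strand: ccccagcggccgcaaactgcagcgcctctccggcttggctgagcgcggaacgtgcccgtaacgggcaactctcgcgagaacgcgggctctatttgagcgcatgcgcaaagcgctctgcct
Rps21, chr2:180257349-180257468, plus strand: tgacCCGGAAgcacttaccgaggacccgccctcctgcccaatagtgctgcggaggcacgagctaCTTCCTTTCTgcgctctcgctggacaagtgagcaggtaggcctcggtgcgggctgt
Rpl14, chr9:120571417-120571536, plus strand: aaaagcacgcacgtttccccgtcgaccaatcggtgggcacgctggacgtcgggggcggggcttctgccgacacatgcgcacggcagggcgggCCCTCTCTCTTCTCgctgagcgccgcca
Rps24, chr14:24490653-24490772, plus strand: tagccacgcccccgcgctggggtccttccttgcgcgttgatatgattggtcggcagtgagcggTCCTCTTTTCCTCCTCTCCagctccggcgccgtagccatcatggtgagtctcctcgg
A pyrimidine run is present in Rpl14 and Rps21, which fell, and also in Rps24, which rose; the printed Rpl10a window holds none of these marks.

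Promoter entries were found for 68 members, 57 of them standard genes, among 27025 genes in the table. A gene was counted as a match if any of its listed starts matched, so genes with more starts had more chances. A run of at least 10 pyrimidines was sought on the coding strand, within 50 bases of the start on either side. It was present in 42 of the 57 standard genes (73.7%) and in 20.6% of all genes with an entry. This search was added after the responses were known. CCGGAA was searched on both strands over the window from 250 bases before to 50 bases after the start. It was present in 32 of 57 (56.1%) against 16.7% of all genes with an entry. The letters CTTTCC with their first base within 5 bases of the start, on the coding strand, were present in 14.0% against 0.7%, CTCTT in 17.5% against 2.1%, CCTTT in 8.8% against 1.7% and CTTTT in 5.3% against 1.6%. AAGATGG, part of a YY1 recognition sequence, was present on either strand in 15.8% against 7.3%, and TATAAA in 10.5% against 15.7%. These are matches of letters, and say nothing of what binds there.

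**Figure D2:**
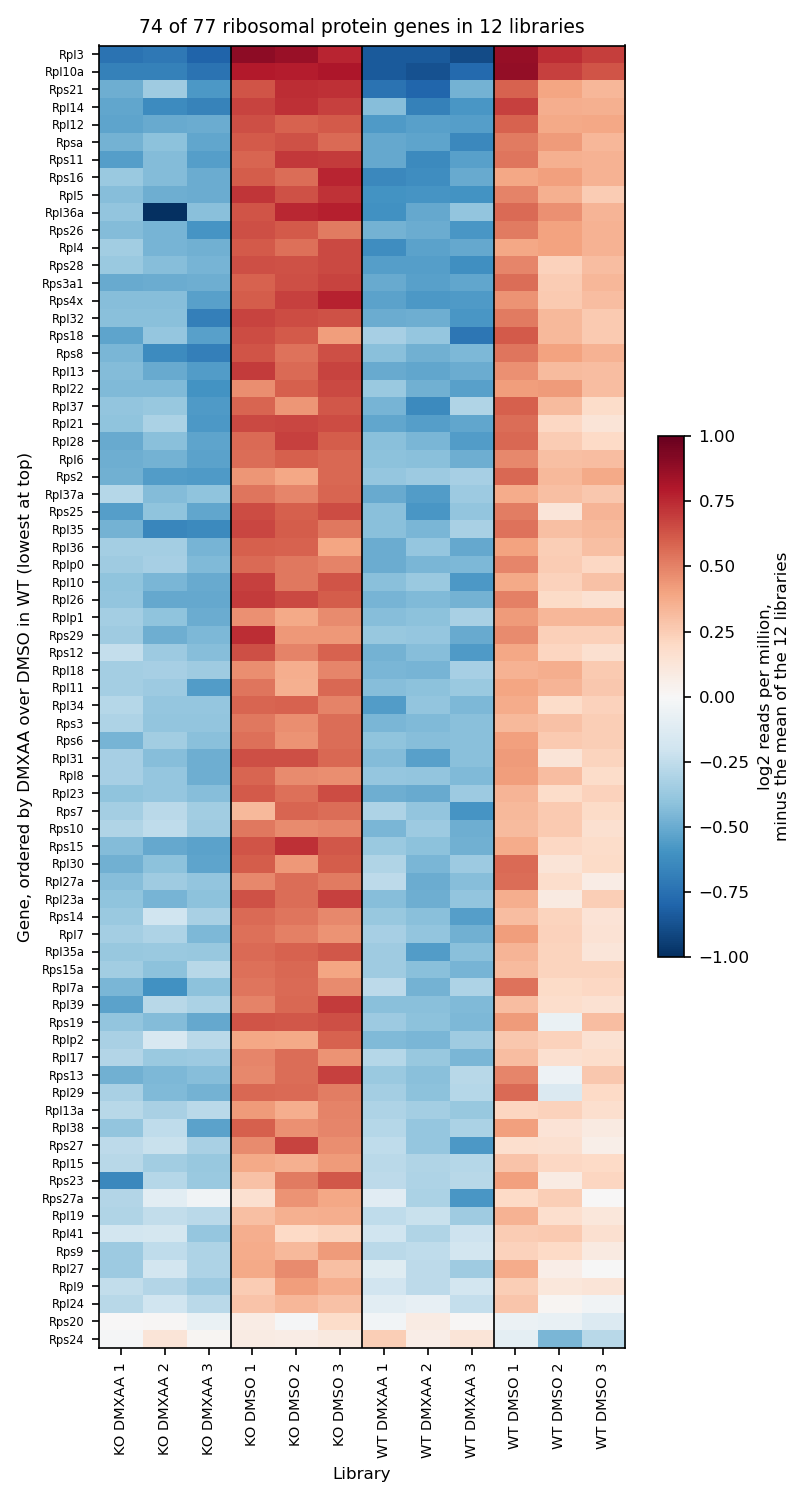
Level of each of 74 of the 77 standard genes in the 12 libraries, as log2 RPM minus the gene's mean over the libraries, with colours ending at -1 and 1. Genes run from the lowest DMXAA over DMSO difference in WT cells at the top, Rpl3, to the highest at the bottom, Rps24; the DMXAA columns of both genotypes are low for nearly all genes, and KO with DMSO is the highest block.

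In both genotypes 65 standard genes fell, of the 72 that fell in KO cells and the 66 that fell in WT cells. The 3 standard genes that rose were the same. With most of the 77 called lower in each genotype, a large overlap had to follow. The share of all tested genes called in both genotypes is not given. Over the 77 standard genes, the KO difference and the WT difference, which share no libraries, were correlated (Pearson 0.912, Spearman 0.822). Without Rpl3, Rpl10a and Rps24 these coefficients were 0.885 and 0.8 over 74 genes. The genes share libraries, the scaling of each table and, for some, sequence, so the correlation is a description. A gene's level was only weakly related to its response: the Pearson correlation with the mean log2 RPM was 0.294 in KO and 0.254 in WT cells.

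**Figure D3:**
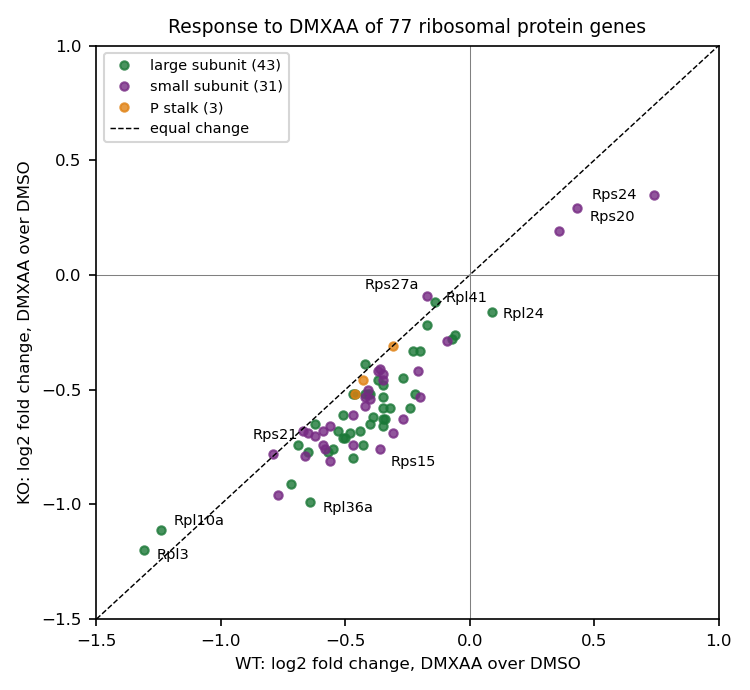
DMXAA over DMSO log2 difference of the 77 standard genes in KO cells (vertical axis) against WT cells (horizontal axis), coloured by subunit, with a dashed line of equal change. Most genes lie in the lower left and below the line, with Rpl3 and Rpl10a at the low end and Rps20 and Rps24 at the high end.

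The size of these shifts depends on how the libraries are scaled. With every library rescaled to the same total, the median over all tested genes was -0.39 in KO and -0.32 in WT cells, and the members' median was -0.96 in KO and -0.72 in WT. Rescaling multiplies all genes of a library by the same factor. The gap between the members' median and that of all tested genes therefore had to stay nearly the same. On equal totals 82 members fell and 1 rose in KO cells, where 61.6% of all tested genes fell and 15.7% rose, and 81 fell and 2 rose in WT cells, where 55.6% of all tested genes fell and 16.1% rose. Of the standard genes, 75 fell and none rose in KO cells, and 74 fell and 1 rose in WT cells. By RPM, 75 of the 77 standard genes in KO cells and 74 in WT cells had fewer RPM in every DMXAA library than in any DMSO library, where this held for 63.2% of all tested genes in KO and 58.0% in WT cells.

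For Rps24 and Rps20 the direction or the call turned on the scaling, except for Rps24 in WT cells. Rps24 had 1851, 2046 and 1891 RPM under DMXAA and 1980, 1964 and 2003 RPM under DMSO in KO cells, which overlap, with a log2 difference of -0.04 on equal totals. In WT cells Rps24 had 2221, 1952 and 2043 RPM under DMXAA and 1748, 1362 and 1542 RPM under DMSO, which do not overlap, and its log2 difference on equal totals was 0.42 (adjusted p = 0.00116). Rps20 had a log2 difference of -0.10 in KO and 0.11 in WT cells on equal totals (adjusted p = 0.0513 in WT). Rps24 in WT cells was thus the only standard gene called higher under each of the 3 scalings tried in either genotype. Rpl24, which was not called in WT cells, had a log2 difference of -0.23 there on equal totals (adjusted p = 0.0253). Rpl3 and Rpl10a deepened to -1.59 and -1.5 in KO and to -1.63 and -1.56 in WT cells.

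**Figure D4:**
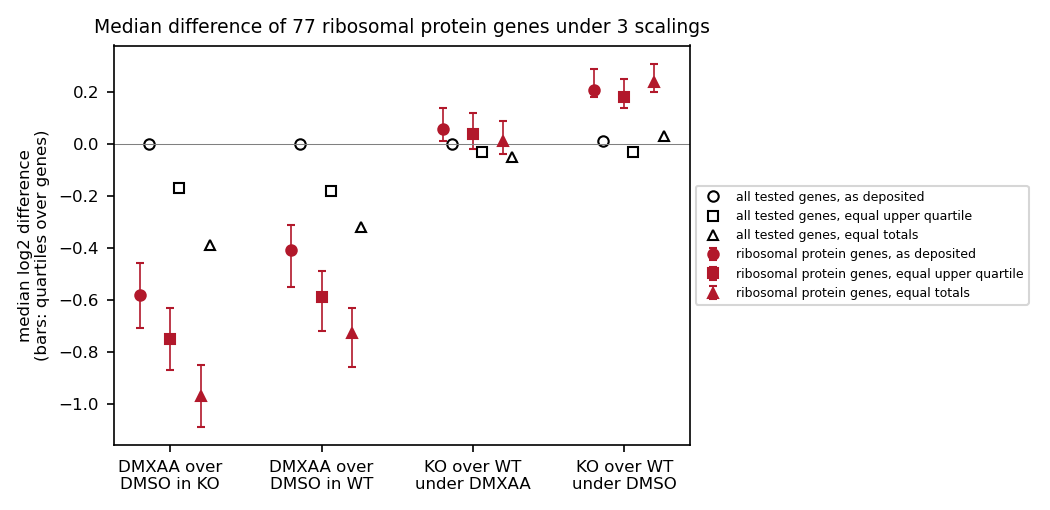
Median log2 difference of the 77 standard genes (filled symbols, bars from the lower to the upper quartile over genes) and of all tested genes (open symbols) in each comparison, with values as deposited, libraries set to an equal upper quartile, and libraries set to equal totals. The standard genes lie below all genes under DMXAA in both genotypes and above all genes in KO over WT under DMSO, with each scaling. Rescaling moves all genes of a library together, so the likeness between scalings is no separate support.

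Between the genotypes the genes differed little under DMXAA. Of 88 tested members, 15 were higher and 2 lower in KO than in WT cells, where 10.7% of all 12499 tested genes were higher and 10.8% lower, and the median log2 difference was 0.06. All 15 of the higher members were standard genes, 6 of the large subunit, 7 of the small subunit and 2 of the stalk. No overlap was seen for 27 higher and 2 lower members, where 19.1% of all tested genes were higher and 18.5% lower with no overlap. On equal totals 5 members were higher and 3 lower, where 7.51% of all tested genes were higher and 14.4% lower. The number called higher was 8 without KO DMXAA replicate 1, 7 without KO DMXAA replicate 2, 9 without WT DMXAA replicate 1 or 2, and 12 without replicate 3 of either group. Of the 15 calls, 4 held whichever library was left out.

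Rplp2 was among those 4 calls. Rplp2 had 49430, 55900 and 51840 normalized counts in KO cells, against 44120, 44140 and 47500 in WT cells, a log2 difference of 0.21 (SE 0.0493, adjusted p = 0.0117). All KO libraries lay above all WT libraries. Rps16, of the small subunit, had a log2 difference of 0.20 (adjusted p = 0.0159), and its call was lost in 3 of the 6 fits with a library left out. Rps27a and Rps21 had log2 differences of 0.24 each and were not called (adjusted p = 0.124 and 0.0581). Of the lower members, Rps2, at the entry of the mRNA channel, had 21770, 20910 and 20810 normalized counts in KO cells, against 22620, 23150 and 23670 in WT cells, a log2 difference of -0.13 (adjusted p = 0.0304). Its call was lost in 4 of the 6 fits with a library left out. Rps27l, the other lower member, is described with the copies.

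Under DMSO, many of the members were higher in KO than in WT cells. Of 87 tested members, 39 were higher and none lower, where 7.04% of all 12814 tested genes were higher and 9.58% lower, and the median log2 difference was 0.21. With edgeR, 35 members were higher and none lower, where it called 6.93% of all tested genes higher. DESeq2 called 46 members higher and none lower, a count given without the share over all tested genes. All 77 standard genes had differences above 0, from 0.01 to 0.39, where the median over all tested genes was near 0. Of them 38 were called: 20 of 43 of the large subunit, 17 of 31 of the small subunit, and Rplp2. No overlap was seen for 45 higher members and 1 lower, where 17.1% of all tested genes were higher and 17.6% lower with no overlap. On equal totals 47 members were higher and none lower, against 8.79% of all tested genes higher.

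The count under DMSO turned on single libraries, and the share over all tested genes is not given for these fits. Without WT DMSO replicate 1, 66 members were higher with a median of 0.28. Without WT DMSO replicate 2 or 3, 20 and 19 members were higher, and without KO DMSO replicate 1 or 3, 21 and 25. The median stayed between 0.178 and 0.28 in every such fit, and 17 of the 39 calls held whichever library was left out.

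Rps15, a protein of the small subunit head that reaches to the decoding site (chromosome 10, bases 80292453 to 80294114, plus strand), had 55370, 58820 and 56020 normalized counts in KO cells under DMSO, against 47660, 41800 and 41560 in WT cells. Its log2 difference was 0.38 (SE 0.0594, adjusted p = 0.00124). Rps27 (chromosome 3, bases 90212522 to 90213651, minus strand), a small subunit protein with a zinc finger, had 62820, 71540 and 63260 normalized counts in KO cells, against 52080, 51130 and 47800 in WT cells, a log2 difference of 0.39 (SE 0.06, adjusted p = 0.00118). Rpl23a, which lines the exit of the peptide tunnel (chromosome 11, bases 78180932 to 78183584, minus strand), had 23340, 21940 and 24480 normalized counts in KO cells, against 19890, 16230 and 18200 in WT cells, a log2 difference of 0.36 (SE 0.0729, adjusted p = 0.00576). The KO and WT libraries did not overlap in these 3 genes, whose calls held without any one library.

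Rps19, the gene most often mutated in human Diamond-Blackfan anaemia (chromosome 7, bases 24884371 to 24889806, plus strand), had 211700, 209400 and 217700 normalized counts in KO cells under DMSO, against 189000, 132800 and 173000 in WT cells. The WT libraries were spread widely, and the log2 difference was 0.38 (SE 0.101, adjusted p = 0.0247), a call lost in 3 of 6 fits with a library left out. Under DMXAA the same gene had 112000, 109800 and 103800 normalized counts in KO cells and 110600, 108500 and 105300 in WT cells, which overlap. Rps15 too was alike under DMXAA, at 28370, 27190 and 26800 normalized counts in KO and 28780, 28240 and 27010 in WT cells, a log2 difference of -0.03 (adjusted p = 0.667). Rpl3 and Rplp1, by contrast, showed small differences under DMSO, of 0.05 each (adjusted p = 0.629 and 0.609).

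**Figure D5:**
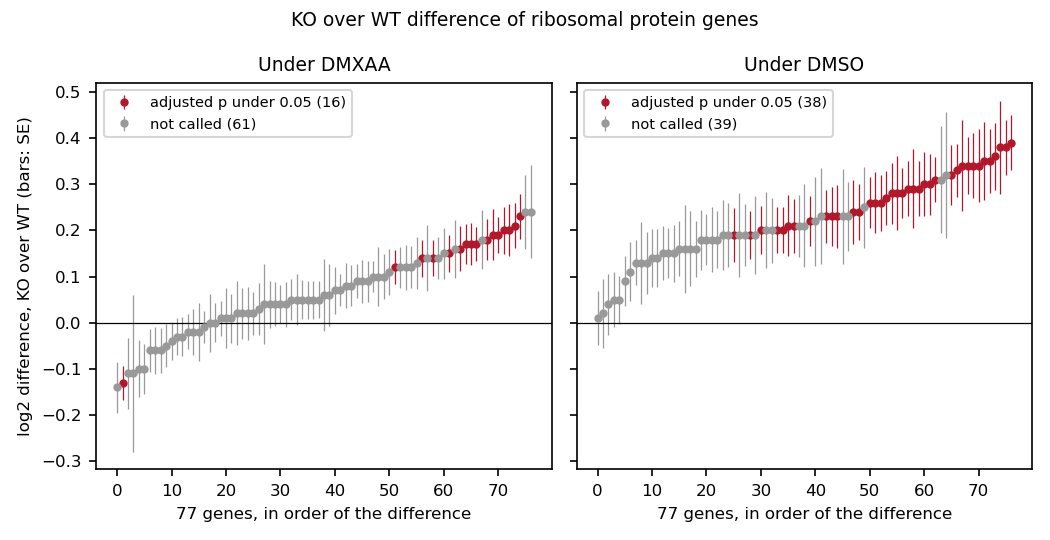
KO over WT log2 difference of the 77 standard genes, in order of size, with SE bars, under DMXAA (left) and under DMSO (right); red points have an adjusted p under 0.05. Under DMXAA 16 points are red and the values spread on both sides of 0, while under DMSO 38 points are red and all values lie above 0.

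Of the standard genes, 12 were called higher in KO cells under both treatments, of the 15 called under DMXAA and the 38 called under DMSO, among them Rpl34, Rpl4, Rpl5, Rplp2, Rps10, Rps12, Rps14, Rps16, Rps28, Rps3 and Rps4x. No share of all tested genes called under both treatments is given, so the count of 12 does not set these genes apart from others. The KO over WT differences under the 2 treatments, which share no libraries, were hardly correlated over the 77 standard genes (Pearson 0.139, Spearman 0.165).

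Whether DMXAA acted differently in the 2 genotypes was tested as the DMXAA over DMSO difference in KO minus that in WT, over all 12 libraries. Of 88 tested members, 3 were called lower and none higher, where 3.24% of all 12729 tested genes were lower and 5.37% higher. The count of lower members was thus near the share over all tested genes. With edgeR, 3 were lower and none higher, where it called 3.31% of all tested genes lower. DESeq2 called 6 lower and none higher. The median over the members was -0.14, and 71 of the 77 standard genes lay below 0. On equal totals 18 members were lower, against 5.88% of all tested genes, with a median of -0.21 where the median over all tested genes was -0.07. Without WT DMSO replicate 1, 27 members were called lower with a median of -0.207. Without KO DMSO replicate 2, 5 were called lower, and without any one of the other 10 libraries between 1 and 3 were. No share over all tested genes is given for DESeq2, for the signs of the differences or for fits with a library left out. Those counts therefore do not set the members apart from other genes.

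Rps15 differed most surely. Its DMXAA over DMSO log2 difference was -0.76 in KO cells, where it had 31650, 30420 and 29980 normalized counts under DMXAA and 50890, 53870 and 51570 under DMSO. It was -0.36 in WT cells, with 31120, 30720 and 29300 normalized counts under DMXAA and 42550, 37260 and 37140 under DMSO. The difference between the responses was -0.41 (SE 0.0734, adjusted p = 0.00299) and stayed called, between -0.47 and -0.37, in all 12 fits with a library left out. Rps24, with a response of 0.35 in KO and 0.74 in WT cells, had a difference of -0.39 (SE 0.107, adjusted p = 0.0342), a call lost in 9 of 12 such fits. Rpl23a, with a response of -0.66 in KO and -0.35 in WT cells, had a difference of -0.31 (SE 0.0898, adjusted p = 0.0459), a call lost in 10 of 12. Rpl35 and Rpl23, next in order of p, had differences of -0.32 and -0.23 and were not called (adjusted p = 0.0514 and 0.0698).

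The copies and the genes that only share the name behaved less uniformly. Rps27l, a copy of Rps27 known as a target of p53, had 7949, 9698 and 8651 normalized counts in KO cells under DMXAA and 8752, 9086 and 8036 under DMSO, and 10020, 9680 and 11150 under DMXAA and 11840, 8833 and 9224 under DMSO in WT cells. With the deposited scaling it was not called in either genotype, with log2 differences of 0.02 in KO (adjusted p = 0.817) and 0.06 in WT (adjusted p = 0.657); on equal totals it was called lower in both, with -0.37 in KO (adjusted p = 0.00134) and -0.26 in WT (adjusted p = 0.0373). Under DMXAA it had 7125, 8668 and 7735 normalized counts in KO cells, against 9269, 8897 and 10280 in WT cells, a log2 difference of -0.28 (adjusted p = 0.0221), a call lost in 3 of 6 fits with a library left out. Its partner Rps27 fell under DMXAA, by 0.42 in KO and by 0.21 in WT cells on the log2 scale. The WT call of Rps27 was lost in 3 of 6 fits with a library left out.

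Rpl22l1, the copy of Rpl22, fell in both genotypes as Rpl22 did: its log2 difference was -0.44 in KO and -0.61 in WT cells, and that of Rpl22 was -0.68 in KO and -0.53 in WT. Rpl36al, the copy of Rpl36a, had 2529, 2782 and 2464 normalized counts under DMXAA and 2846, 2728 and 2926 under DMSO in KO cells, a log2 difference of -0.13 that was not called (adjusted p = 0.0907). In WT cells its log2 difference was -0.20 (adjusted p = 0.0295), lost in 3 of 6 fits with a library left out. Rpl37rt fell by 0.54 in KO and by 0.46 in WT cells on the log2 scale, close to the fall of 0.61 in KO and 0.51 in WT cells in Rpl37. Rps4l, a copy of Rps4x with between 58 and 115 reads in a library, had log2 differences of 0.22 in KO (adjusted p = 0.348) and -0.02 in WT cells (adjusted p = 0.939).

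The copies Rpl3l, Rpl39l and Rpl32l were near the limit of detection. Rpl3l, the form of Rpl3 made in striated muscle, had 4, 18 and 18 reads in KO cells under DMXAA against 0 reads in each library under DMSO, which allows up to 3 reads or 0.0325 to 0.0376 RPM. It had 13, 18 and 44 reads in WT cells under DMXAA against 2, 6 and 0 under DMSO. In WT cells it passed the filter only through the DMXAA libraries, so that its log2 difference of 3.32 (SE 0.782, adjusted p = 0.0041) is a value of a gene that had to differ to be tested; in KO cells it was not tested. Rpl39l, a form of Rpl39 known from testis, had 3 to 12 reads in a library and passed the filter in no comparison. Rpl32l, annotated as a processed pseudogene, had 8 to 29 reads in a library. It fell in KO cells by 1.02 on the log2 scale (SE 0.395, adjusted p = 0.0428), a call lost in 5 of 6 fits with a library left out.

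Of the 3 names that encode no ribosomal protein, Rpl7l1, a factor of ribosome assembly, rose in both genotypes. It had 6710, 6059 and 5942 normalized counts in KO cells under DMXAA, against 4495, 4438 and 4885 under DMSO, a log2 difference of 0.44 (adjusted p = 0.000112), which became 0.05 on equal totals. In WT cells it had 5717, 5305 and 5597 normalized counts under DMXAA, against 4826, 4345 and 4675 under DMSO, a log2 difference of 0.26 (adjusted p = 0.00266), which became -0.05 on equal totals. Rps19bp1, a protein that binds Rps19 and the deacetylase Sirt1, had 754.1, 669.7 and 714.1 normalized counts in KO cells under DMXAA, against 435.0, 360.7 and 462.3 under DMSO, a log2 difference of 0.77 (adjusted p = 0.000109). In WT cells its difference of 0.30 was not called (adjusted p = 0.0509). Rps23rg1, a gene copied from Rps23 mRNA, had a log2 difference of -0.58 in KO (adjusted p = 0.00106) and of -0.18 in WT cells (adjusted p = 0.136).

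Some pairs cannot be separated by their reads. Rps27 held 2.0 to 2.001 times the reads of Rps27rt in all 12 libraries, a coefficient of variation of 0.011% where independent counting would give 0.787%, so the reads of one gene set those of the other and Rps27rt is no separate measurement. Rpl26 had the same number of reads as Gm15772 in all 12 libraries, and the ratio of Rpl34 to Rpl34-ps1 stayed between 3.015 and 3.032 and that of Rpl30 to Gm12191 between 1.864 and 1.880. Values of Rps27, Rpl26, Rpl34 and Rpl30 are therefore uncertain. The ratio of Rps23 to Rps23rg1 had a coefficient of variation of 5.187%, where independent counting would give 4.713%. For Rpl32 to Rpl32l it was 23.786%, where counting would give 22.807%. Reads of Rps23rg1 and Rpl32l thus followed those of their partners about as closely as counting allows. Their calls may therefore be no separate measurements. The ratio of Rps27 to Rps27l, by contrast, varied between 3.103 and 7.249, that of Rpl22 to Rpl22l1 between 5.882 and 8.473, and that of Rpl36a to Rpl36al between 1.110 and 3.252, more than counting allows. Over the 77 standard genes, a median of 15.2% of the transcript's 100-base windows also occur in another annotated gene, and this percentage had Pearson correlations of -0.092 in KO and -0.076 in WT cells with the response to DMXAA.

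Other mRNAs of the TOP class moved the same way. Their list includes Fau and Rack1, which also encode proteins of the small subunit but have names that the member rule does not take. Of 21 such genes outside the members, 18 fell and 2 rose in KO cells, with a median log2 difference of -0.46, where 32.9% of all tested genes fell and 33.7% rose. In WT cells 15 fell and none rose, with a median of -0.36, where 31.1% of all tested genes fell and 31.7% rose. Nap1l1, a histone chaperone that is also on the list of chaperones below, had log2 differences of -0.71 in KO and -1.05 in WT cells, and Eif4b, an initiation factor, had -0.66 in KO and -0.72 in WT. Hnrnpa1 and Vim were the 2 that rose in KO cells. Tpt1, known as the tumour protein TCTP, was higher in KO than in WT cells under DMXAA, by 0.33, and under DMSO, by 0.47, on the log2 scale. On equal totals none of the 21 rose, and 19 fell in KO and 21 in WT cells, where 61.6% of all tested genes fell in KO and 55.6% in WT.

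Non-coding host genes of small nucleolar RNAs that start with the same kind of sequence gave counts near those of all tested genes. Of 8 tested, 4 rose and 2 fell in each genotype, where 33.7% of all tested genes rose and 32.9% fell in KO and 31.7% rose and 31.1% fell in WT cells. Zfas1 had log2 differences of 3.06 in KO and 2.87 in WT cells, Snhg6 had 0.83 in KO and 1.02 in WT, and Snhg1 had 0.50 in KO and 0.59 in WT, all called higher. Zfas1 was lower in KO than in WT cells, by 0.33 under DMXAA and by 0.51 under DMSO on the log2 scale.

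The 78 genes of mitochondrial ribosomal proteins, which serve the separate ribosome of mitochondria, did not share the fall with the deposited scaling. In KO cells 47 rose and 6 fell, with a median log2 difference of 0.24, where 33.7% of all tested genes rose and 32.9% fell. In WT cells 42 rose and 3 fell, with a median of 0.21, where 31.7% rose and 31.1% fell. Mrpl1 had log2 differences of 1.43 in KO and 1.22 in WT cells and Mrps18c had 1.29 in KO and 0.89 in WT. On equal totals the counts turned to 17 higher and 35 lower in KO cells and 14 higher and 26 lower in WT cells, where 15.7% of all tested genes were higher and 61.6% lower in KO, and 16.1% higher and 55.6% lower in WT. In KO against WT cells none of the 78 was higher and 5 were lower under DMSO, where 7.04% of all tested genes were higher and 9.58% lower.

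Factors that build ribosomes gave mixed counts. The shares over all tested genes were 33.7% rising and 32.9% falling in KO and 31.7% rising and 31.1% falling in WT cells, and on equal totals 15.7% rising and 61.6% falling in KO and 16.1% rising and 55.6% falling in WT. Of 72 genes of ribosomal RNA processing and subunit assembly, 28 rose and 15 fell in KO cells and 17 rose and 24 fell in WT cells; on equal totals 4 rose and 52 fell in KO and 4 rose and 51 fell in WT. Npm1, an abundant nucleolar chaperone, had log2 differences of -0.50 in KO and -0.61 in WT cells, while Fcf1, a nuclease-like processing factor, had 0.93 in KO and 0.69 in WT and Eif6, which keeps the large subunit from joining too early, had 0.92 in KO and 0.57 in WT. In KO against WT cells under DMSO, 10 of these 72 were lower and 1 higher, where 9.58% of all tested genes were lower and 7.04% higher. Among the lower ones were Nop56, Nop58 and Nhp2 of the small nucleolar ribonucleoproteins, with log2 differences of -0.42, -0.41 and -0.37. Of the 14 tested of 17 genes of RNA polymerase I and its factors, 5 rose and 3 fell in KO and 4 rose and 1 fell in WT cells, with Tcof1 at 0.86 in KO and 0.73 in WT. Of 10 dedicated chaperones and importers of ribosomal proteins, 3 rose and 5 fell in KO and 2 rose and 6 fell in WT cells, with the importin Ipo4 at -0.59 in KO and -0.85 in WT. Of the 12 tested of 13 genes for rescue of stalled ribosomes, 5 rose and 2 fell in KO and 5 rose and 1 fell in WT cells, with the helicase Ascc3 at 1.34 in KO and 1.31 in WT.

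Among regulators of this gene class, 20 of 21 were tested, and 10 rose and 5 fell in KO and 9 rose and 4 fell in WT cells, where 33.7% of all tested genes rose and 32.9% fell in KO and 31.7% rose and 31.1% fell in WT. Myc, a transcription factor known to drive ribosomal protein genes, had log2 differences of -4.0 in KO and -4.41 in WT cells, and in KO against WT it had -0.74 under DMSO (adjusted p = 0.0103). Max, its partner, rose by 0.92 in KO and by 0.95 in WT cells, and Larp1, which binds TOP starts, rose by 0.69 in KO and by 0.71 in WT on the log2 scale. Of the names that end in -ps or in -ps and a number, which were kept out of the members, 5 of 8 tested fell in KO and 3 of 7 tested in WT cells, and none rose.

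The authors' deposited tables of differential expression gave counts close to these. At an adjusted p under 0.05 the authors' deposited tables list 6 members higher and 76 lower for DMXAA over DMSO in KO cells and 5 higher and 71 lower in WT cells, and for KO over WT they list 19 higher and 2 lower under DMXAA and 45 higher and none lower under DMSO. Of the calls for DMXAA over DMSO in the authors' deposited tables, limma called 81 in KO and 74 in WT cells in the same direction. Of the calls for KO over WT in the authors' deposited tables, limma called 17 under DMXAA and 39 under DMSO in the same direction. The authors' counts are given without the share over all genes, so they do not set the members apart. Both sets of calls rest on the same reads, so their likeness is no separate support.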

How the data were processed

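RNA of 12 macrophage samples was made into strand-specific mRNA libraries, per the labels' protocols. Reads were mapped with HISAT2 and counted with featureCounts on mm10, per the submitters' processing notes; the tools' versions were not given in the sources used here. Signal values in the deposited tables are normalized counts. The authors made them by dividing read counts by a size factor within each table of 6 libraries, as seen from the values. All of them came out as whole reads within 0.01. The 182112 recovered values compared between tables, each the read count of a gene in a library, were the same. The authors also deposited log2 fold changes, p-values and a test score (the test statistic) of their own comparisons.

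Normalized counts were tested on log2(value + 1) with limma 3.58.1 (R 4.3.3; lmFit, eBayes with a mean trend) within each table, for genes with a mean of at least 10, at a two-sided adjusted p under 0.05; the difference between responses was fitted over all 12 libraries. RPM used the recovered reads. Alternatives were equal totals, equal upper quartiles, edgeR 4.0.16 and DESeq2 1.42.0 on recovered reads, no filter, a pseudocount of 10, a replicate block, other readings of the name rule, and leaving out each library. The fits were tried on simulated counts with a fixed spread and few changed genes. In the data most tested genes were called under DMXAA, so that trial checks only that the fits run properly. Named in each comparison are the 5 highest and 5 lowest tested members, called members against the majority, copies with their partners, the stalk genes and Rpsa, and of other lists at most 3 genes with the smallest p; not all of them are printed, and some genes are not reported here. Members and lists were chosen with earlier results of these data known. Figures used Python 3.11.15 and matplotlib 3.10.9.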

Additional observations from a re-analysis of the deposited data

Results flagged for a closer look

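The response to DMXAA differed between KO and WT cells for 3 members, by the test of the difference between the responses over all 12 libraries (limma, adjusted over all tested genes). These were 3 of 88 tested members, near the 3.24% of all tested genes that were called lower. The response in KO minus that in WT was -0.41 for Rps15, -0.39 for Rps24 and -0.31 for Rpl23a on the log2 scale, with adjusted p of 0.00299, 0.0342 and 0.0459. In Rps15 and Rpl23a the fall under DMXAA was deeper in KO cells, and in Rps24 the rise was smaller. The call of Rps15 held in all 12 fits with a library left out, that of Rps24 was lost in 9 of them and that of Rpl23a in 10. Leaving out WT DMSO replicate 1 gave 27 such members, a count given without the share over all tested genes in that fit.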

How the results depend on the processing

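With libraries set to equal totals, 1 member was higher under DMXAA in KO cells (median -0.964) and 2 in WT cells (median -0.722), 5 were higher in KO than in WT under DMXAA (median 0.017), and 18 had a lower response in KO (median -0.21). With equal upper quartiles, 3 were higher in KO cells (median -0.742), the WT median was -0.581, and 8 were higher in KO than in WT under DMXAA (median 0.038). Equal totals turned the direction of Rps20 (-0.10), Rps24 (-0.04) and Rps27l (-0.37) in KO and of Rpl24 (-0.23), Rpl7l1 (-0.05) and Rps27l (-0.26) in WT cells. Among standard genes alone, 3 were higher under DMXAA in KO and 3 in WT, and 1 was lower in KO than in WT under DMXAA. Reading the name rule literally gave a KO median of -0.539. DESeq2 called 6 lower responses in KO. The 100 genes with most reads, 2 of them members, were also left out of both the members and the total. The mean shares were then 2.619% in KO with DMXAA, 4.493% in KO with DMSO, 2.503% in WT with DMXAA and 3.870% in WT with DMSO. These shares do not cover all members. Leaving out one library gave 5 to 5 higher and 76 to 77 lower members under DMXAA in KO (median -0.593 to -0.551), 4 to 8 and 62 to 70 in WT (-0.433 to -0.34), 7 to 12 higher and 0 to 3 lower in KO against WT under DMXAA (0.05 to 0.083), 19 to 66 and 0 to 0 under DMSO (0.178 to 0.28), and 0 to 0 higher and 1 to 27 lower for the difference between responses (-0.207 to -0.108). Replicate numbers did not pair the samples: same-numbered libraries had correlations of deviations from -0.036 to 0.066, and the numbers in the titles and the numerals in the library names disagree. With a replicate block by title number, 5 members were higher and 76 lower in KO and 5 higher and 73 lower in WT under DMXAA; under either numbering 1 was lower in KO than in WT under DMXAA. The cause of these changes was not tested. Counts with equal upper quartiles, DESeq2, a replicate block or a library left out are given without the share over all tested genes. They show how the member counts move and do not set the members apart from other genes. At 79482003 to 98135869 reads in a library, depth limits only the copies with few reads.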
